A study of Mus musculus with 6 samples.

Results

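The S phase and DNA replication genes described here are 50 genes chosen by symbol, and all 50 were matched to a row among the 32285 genes of the deposited count table. They cover origin recognition and licensing, the replicative helicase, the polymerases, the sliding clamp and its loader, nucleases and ligase, nucleotide supply, chromatin assembly, and E2F with cyclin E. The rule that lists them uses no measured value, but the list was chosen with earlier results of these data known. Messenger RNA was sequenced from GS (germline stem) cells of the mouse, which are spermatogonial stem cells kept in culture, here a wild-type DBA-GFP line. Complete medium served as the control, with 3 libraries, and the other 3 libraries were of the same cells in a medium labelled with 8 mM pyruvate. Both groups are the same line and genotype, so that the result is that of 1 line, and the labels give no culture time and no other component of either medium. The study concerns alanine metabolism and energy balance in these cells, and the comparison asks how replication transcripts differ between the media.

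Chromosomes are copied once per cell cycle. In G1, the origin recognition complex, Cdc6 and Cdt1 load the ring of Mcm2 to Mcm7 onto origins. Cyclin E with its kinase, the kinase Cdc7 and the added Cdc45 and GINS subunits then turn the ring into an active helicase. Primase with polymerase alpha starts each strand, polymerases epsilon and delta extend it, and PCNA, the clamp, holds them on the template. E2F transcription factors switch many of these genes on at the entry to S phase, and ribonucleotide reductase and thymidylate synthase supply the nucleotides. Spermatogonial stem cells in culture keep dividing when given growth factors, which keeps this machinery in use.

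All 50 members passed the filter on low counts, with control means from 19.8 to 580 CPM (counts scaled to a common library size, with TMM factors). Each library held 20918312 to 26413080 counts in total, and a floor of 3 counts corresponded to 0.114 to 0.143 CPM, far under every member. The 14 germ cell markers summed to 3525 to 4182 CPM in control libraries and 3369 to 3758 in pyruvate libraries. Their levels differed widely. Mean CPM was 831 (controls) and 689 (pyruvate) for Dazl, the highest, and 254 and 267 for Ddx4. Nanos3 lay at 21.4 and 32.2, and Nanos2, the lowest, at 6.55 and 9.35. The 12 fibroblast markers summed to 106 to 122 CPM in control libraries and 110.2 to 146 in pyruvate libraries, with Col1a1 highest. Differentiating and meiotic markers summed to 755 to 849.8 CPM in control and 594 to 745 in pyruvate medium, and 0 of 8 passed edgeR's test, nor did any of the germ cell or fibroblast markers. In the fit without control replicate 2, edgeR called Sohlh2 (differentiating, log2 -0.26), and Tex101 (-0.39) and Zbtb16 (0.45) among germ cell markers. It also called Thy1 (-0.71) and Acta2 (1.45) in the fibroblast list. That fit called 1.82% of all genes lower and 2.33% higher. Acta2 stood at only 0.67 to 2.36 CPM, highest in control replicate 2, and its log2 fold change was 0.58 with all libraries. Which cells the Thy1 RNA came from was not tested. The part of these marker levels in the results on the members was not tested. Sertoli, Leydig and macrophage lists summed to at most 33.9 CPM in a library, and Fshr, Hsd3b1, Insl3 and Adgre1 were at 0 in all 6.

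Control replicate 2 stood apart from the other libraries and the member results depend on it. On the first principal component of all tested genes it lay at 36.5, against -4.12 and 0.81 for the other controls. Pyruvate replicates 1, 2 and 3 lay at -27.2, -1.42 and -4.64, so pyruvate replicate 1 also stood apart from its group. It was the lowest pyruvate library in 25 of 50 members. Among the members the log2 CPM of control replicate 2 differed from the mean of the other controls by -0.43 for Chaf1b to 0.94 for Ccne2. This difference followed the GC content of the transcripts: Spearman's rho was -0.68 and Pearson's r -0.70 across the 50 members, which share the same libraries, so this is a description. GC-poor members such as Ccne2, Pola1, Rfc1 and Mcm4 were highest in control replicate 2, and GC-rich ones such as Pold2, Tk1 and Lig1 were lowest there. Between control replicates 1 and 3 the chi-square per gene, a measure of how far the counts of a pair of libraries differ, was 2.97. It was 43.3 and 34.5 for the pairs with control replicate 2, and 4.09 to 14.8 between pyruvate libraries. Results are therefore given with all libraries and without control replicate 2.

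**Figure D1:**
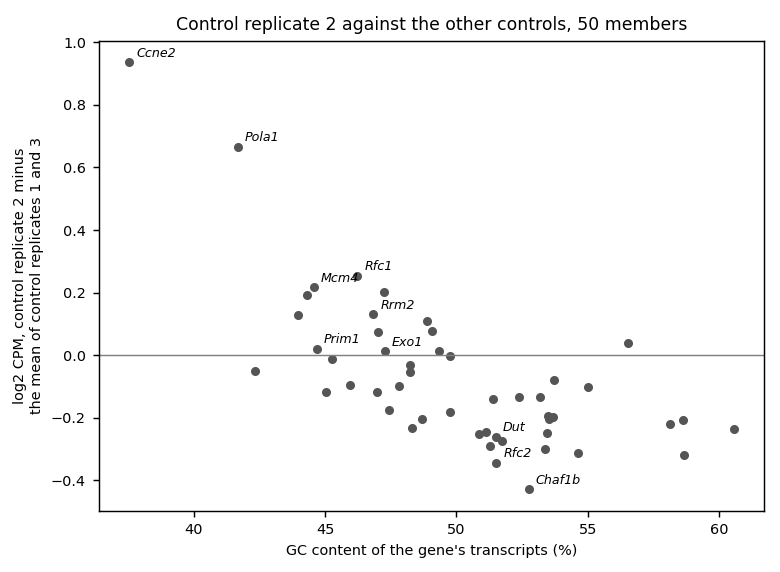
Each point is 1 of the 50 members: the horizontal axis is the GC content of its transcripts in percent, and the vertical axis is log2 CPM in control replicate 2 minus the mean of control replicates 1 and 3. The points fall from left to right, from 0.94 for Ccne2, the member of lowest GC content, with exceptions such as Pcna, of low GC content and at -0.05.

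Replication transcripts stood slightly lower in pyruvate medium than in complete medium, with the lowest values in nucleotide supply, primase and cyclin E. Log2 fold changes, pyruvate minus control, lay below 0 for 43 of 50 members, against 51.9% of all 14912 genes tested. Their median was -0.11, against -0.01 over all genes tested. In 20 of 50 members every pyruvate library lay below every control library, which held for 10.6% of all genes tested. The reverse, every pyruvate library above every control, held for 1 member, Gins3, and for 11.9% of all genes.

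By edgeR (quasi-likelihood, Benjamini-Hochberg adjustment over all genes tested), none of these differences passed. Of the members, 0 were called lower and 0 higher, against 0.0335% and 0.0201% of all genes tested, and the lowest adjusted p was 0.123. At an unadjusted p under 0.05, 13 members lay lower and 0 higher, against 6.44% and 7.94% of all genes. DESeq2 called 3 members lower (Rrm2, Prim1 and Ccne1), against 0.905% of all genes, and limma-voom called 0. With no filter on low counts 1 member was called lower (0.138% of all genes), with a trend on GC content and length removed 5 (1.77%), with the replicate number as a block 2 (0.764%), and with both of the last changes 10 (5.04%). The largest fitted difference among the members was 1.45-fold. In simulated counts for this comparison, run on 14775 genes, edgeR recovered 44 of 100 genes with a 1.5-fold difference and 88 of 100 with a 2-fold difference. It also called 12 unchanged genes. The changed genes were drawn from many levels, and 0 members differed by 1.5-fold or more. How often a difference of the members' size and level would be missed with 3 libraries per group was therefore not simulated.

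Without control replicate 2, 6 of 50 members fell, Rrm2, Prim1, Ccne1, Exo1, Dut and Fen1, and 0 rose, against 1.82% and 2.33% of all genes tested in that fit. Its remaining controls, replicates 1 and 3, were the closest pair of libraries, so its p-values rest on a smaller spread between controls. Over all genes it called 625, against 8 with all libraries. In that fit 44 of 50 log2 fold changes lay below 0, against 47.6% of all genes, with a median of -0.13. At an unadjusted p under 0.05, 24 members lay lower, against 9.92% of all genes. The pyruvate libraries all lay below control replicates 1 and 3 in 35 of 50 members, and in 20.1% of all genes. Leaving out any of the other 5 libraries called 0 members, and 0 to 3 of all genes. The lowest adjusted p of a member by edgeR then lay between 0.251 and 0.394. In these fits 4 to 9 members had an unadjusted p under 0.05, the fewest without pyruvate replicate 1. The share of all genes at that level was not computed for these fits, so these counts of members cannot be set against it.

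The median of the members' deviations from their mean over the 6 libraries was 0.10, -0.02 and 0.09 on the log2 scale in control replicates 1, 2 and 3. It was -0.07, -0.07 and -0.03 in pyruvate libraries 1, 2 and 3. The groups did not overlap by this measure, but control replicate 2 lay nearer to pyruvate replicate 3 than to either other control. In bulk RNA, fewer cells in S phase and less RNA of these genes per cell cannot be told apart.

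**Figure D2:**
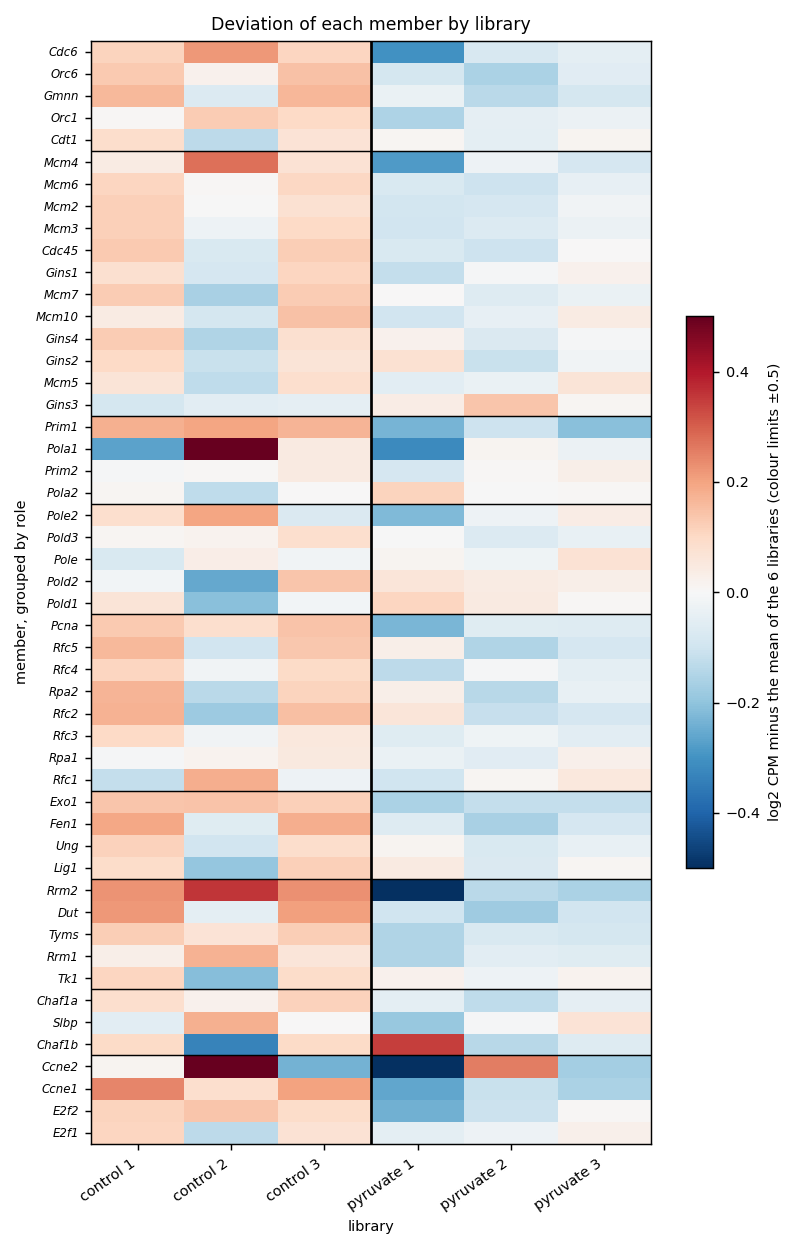
Rows are the 50 members grouped by role and columns the 6 libraries; colour gives log2 CPM minus the mean of the 6 libraries, with limits of ±0.5. Control replicates 1 and 3 are mostly above 0, the pyruvate libraries mostly below, and control replicate 2 is mixed, with Pola1 and Ccne2 past the upper limit.

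The choice of members did not use promoter sequence. RefSeq promoter windows on GRCm38.p6, from 250 bases before to 50 after a start, were at hand for 40 of the 50 members. An E2F-type word (TTTCCCGC, TTTGGCGC, TTTGCCGC or TTTCGCGC, on either strand) was present in 15 of these 40, or 37.5%, against 2.605% of 27025 genes with a window. CCAAT, the word bound by NF-Y, on either strand, was present in 23 of 40, or 57.5%, against 41.1% of all genes. GGGCGG, a GC box, was present in 80% of members and 38.2% of all genes, and TTTGAA, the word of late cell cycle promoters, in 15% and 20.2%. The E2F-type words can overlap each other, and the CCAAT and TTTGAA words were searched without regard to the others.

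The stretches below lie before the annotated starts and run in the direction of the gene. Mcm6 and Mcm5, of the helicase ring, are shown because they hold E2F-type words, in capitals, and in both a pair of words on opposite strands overlaps. Rrm2 is shown because it had the largest fitted difference of any member, and its window holds no such word but a CCAAT, in capitals. The stretches are chr1:128359706-128359955 (minus strand) for Mcm6, chr8:75109259-75109508 (plus strand) for Mcm5 and chr12:24708004-24708240 (plus strand) for Rrm2.
Mcm6: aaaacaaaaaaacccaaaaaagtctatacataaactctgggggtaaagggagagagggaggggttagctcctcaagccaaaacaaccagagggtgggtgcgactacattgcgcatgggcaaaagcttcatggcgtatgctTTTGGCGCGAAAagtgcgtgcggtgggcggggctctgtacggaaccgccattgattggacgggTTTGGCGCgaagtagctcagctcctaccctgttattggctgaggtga
Mcm5: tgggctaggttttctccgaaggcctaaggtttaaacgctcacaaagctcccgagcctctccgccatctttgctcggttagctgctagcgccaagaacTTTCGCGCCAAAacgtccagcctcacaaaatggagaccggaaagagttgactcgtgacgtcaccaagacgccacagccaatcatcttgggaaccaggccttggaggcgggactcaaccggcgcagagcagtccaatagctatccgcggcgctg
Rrm2: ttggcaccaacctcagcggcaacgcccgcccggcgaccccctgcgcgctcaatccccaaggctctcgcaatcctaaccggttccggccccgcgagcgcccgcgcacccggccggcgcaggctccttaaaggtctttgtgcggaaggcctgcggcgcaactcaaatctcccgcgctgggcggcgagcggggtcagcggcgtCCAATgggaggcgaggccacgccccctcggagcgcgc
The median log2 fold change was -0.09 in the 15 members with an E2F-type word and -0.12 in the 25 without. Of these, 13 of 15 and 21 of 25 lay below 0. A match describes the letters of the window and is not a binding site.

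Origin recognition and licensing genes all lay below 0, although Cdt1 lay at up to 0.022 under scaling by library totals and in 3 of the fits that left out 1 library. This group of 5 had a median log2 fold change of -0.18. In 3 of its members every pyruvate library lay below every control, as in 10.6% of all genes tested. Cdc6, the ATPase that joins the origin complex to load the helicase, stood at 73.2, 78.9 and 73.1 CPM in control replicates 1, 2 and 3. In pyruvate replicates 1, 2 and 3 it stood at 54.99, 64.2 and 65.7 CPM. Every pyruvate library was lower, pyruvate replicate 1 most, and the log2 fold change was -0.29 (SE 0.094, adjusted p = 0.231 by edgeR). Orc6, the smallest origin complex subunit, stood at 87.96, 81.5 and 88.97 CPM in the controls against 75.6, 71.96 and 77.1 with pyruvate (log2 -0.20, SE 0.077, adjusted p = 0.294). Orc1, the subunit that binds chromatin to start origin recognition, stood at 101, 109 and 107 CPM in the controls against 90.3, 97.2 and 98.4 with pyruvate (log2 -0.15, adjusted p = 0.410). Both genes were lower in every pyruvate library by a narrow margin.

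Cdt1, which brings the helicase to origins, and Gmnn, geminin, which blocks Cdt1 after licensing, have opposed roles. Gmnn had a log2 fold change of -0.18 (SE 0.091) and Cdt1 of -0.02 (SE 0.081). Counts of Cdt1 per count of Gmnn within a library do not depend on the scaling of libraries. They are not corrected for differences between libraries that follow GC content, which is 58.6% for Cdt1 and 48.3% for Gmnn. This ratio was 2.67, 2.698 and 2.63 in controls 1, 2 and 3, against 2.902, 2.99 and 3.02 in pyruvate libraries 1, 2 and 3. It was higher in 3 of 3 pyruvate libraries, from 2.67 ± 0.034 to 2.97 ± 0.062 (SD, n = 3 per group). The exact two-sided permutation test gave p = 0.1, the smallest that 3 against 3 libraries allow. After adjustment over the 8 ratios computed, which were chosen after the values were seen, it was 0.267. Apart from this ratio, only Prim1 to Prim2 and Rrm2 to Rrm1 separated the groups. The ratios Exo1 to Fen1, Ccne1 to Ccne2, Mcm4 to Mcm6, Chaf1a to Chaf1b and Pole2 to Pole overlapped between groups. Their permutation p was 0.3 or above.

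Among the 12 genes of the replicative helicase, 11 lay below 0 with a median of -0.07. In 4, all core ring subunits, every pyruvate library lay below every control, as in 10.6% of all genes tested. The median of the 12 was -0.14 without control replicate 2, with 11 again below 0. Mcm4 stood at 331, 389 and 338 CPM in the controls against 264, 316 and 303 with pyruvate (log2 -0.26, SE 0.097, adjusted p = 0.280 by edgeR). Control replicate 2 was the highest library for Mcm4, and without it the log2 fold change was -0.18. Mcm6 stood at 430.1, 401 and 429 CPM in the controls against 379, 372 and 389 with pyruvate (log2 -0.14, SE 0.068). Mcm2 stood at 602, 553 and 585 CPM in the controls against 519.6, 522 and 547 with pyruvate (log2 -0.13, SE 0.069). For Mcm2 and Mcm6 control replicate 2 was the lowest control and lay close above the pyruvate libraries.

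The other ring subunits had log2 fold changes of -0.13 for Mcm3, -0.07 for Mcm7 and -0.02 for Mcm5 (SE 0.071, 0.092 and 0.082). Cdc45, which joins the ring at the fork, lay at -0.12, and Mcm10, which helps start the helicase, at -0.07. Mcm5, Gins2 and Gins4 lay above 0, by at most 0.027, in some fits that left out 1 library, and Mcm5 also under scaling by library totals. The GINS subunits lay at -0.07 for Gins1, -0.04 for Gins2, 0.12 for Gins3 and -0.04 for Gins4. Gins3 was the only one of the 50 members higher in every pyruvate library (SE 0.084, adjusted p = 0.535 by edgeR), and it kept that sign in all 16 alternatives. Without control replicate 2, 6 of the 12 helicase genes lay lower at an unadjusted p under 0.05, against 9.92% of all genes. After adjustment 0 passed, against 1.82% lower and 2.33% higher of all genes.

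Primase and polymerase alpha split within the complex, with 3 of 4 genes below 0 and a median of -0.14, and 2 of 4 and -0.02 without control replicate 2. Prim1, the catalytic primase subunit (chromosome 10, 128015168 to 128030037), stood at 93.2, 94.3 and 92.6 CPM in control replicates 1, 2 and 3. It stood at 69.97, 76.7 and 71.3 CPM in pyruvate libraries 1, 2 and 3. The controls lay within a narrow band that includes control replicate 2, and every pyruvate library lay below it. The log2 fold change was -0.36 (SE 0.075, adjusted p = 0.123), or 22.2% lower, and without control replicate 2 it was -0.35 (SE 0.068, adjusted p = 0.0230), which passed edgeR's test. Over the 16 alternatives the adjusted p ran from 0.0110 to 0.394, with DESeq2 among the settings that called it.

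Prim2, the regulatory primase subunit that pairs with Prim1, lay at -0.03 (SE 0.074). Prim1 counts per Prim2 count were 1.21, 1.21 and 1.16 in controls 1, 2 and 3, against 0.956, 0.987 and 0.902 in pyruvate libraries 1, 2 and 3. The ratio went from 1.19 ± 0.029 to 0.948 ± 0.043 (SD, n = 3 per group), lower in 3 of 3 pyruvate libraries (exact permutation p = 0.1, the smallest possible, 0.267 after adjustment over 8 ratios). Pola2, the accessory subunit of polymerase alpha, stood at 88.7, 80.7 and 88.4 CPM in the controls against 95.3, 88.2 and 88.5 with pyruvate (log2 0.08, SE 0.079). Pola1, the catalytic subunit, stood at 18.99, 33.7 and 23.6 CPM in the controls against 18.4, 23.1 and 22.5 with pyruvate. The log2 fold change of Pola1 was -0.26 (SE 0.20), and it was 0.00 without control replicate 2, its highest library.

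The polymerases that extend the strands showed no common direction. Of 5 genes, 2 lay below 0 and 3 above, with a median of 0.04, and without control replicate 2 these were 3 and 2, with a median of -0.02. With all libraries, adjusted p lay between 0.609 and 0.818 by edgeR. Pold1, the catalytic subunit of polymerase delta, stood at 320.4, 265 and 303 CPM in the controls against 329.6, 316 and 308 with pyruvate (log2 0.10, SE 0.086). Pold3, a delta subunit that contacts the clamp, stood at 139, 139.8 and 146 CPM in the controls against 138, 132 and 135 with pyruvate. Its libraries did not overlap between groups, but the log2 fold change was only -0.07 (SE 0.069). Pole2, an epsilon subunit, stood at 23.1, 25.02 and 20.7 CPM in the controls against 18.7, 21.4 and 22.4 with pyruvate (log2 -0.14, SE 0.11), with overlapping groups. Pole, the catalytic subunit of epsilon, lay at 0.04 (SE 0.069) and Pold2 at 0.08 (SE 0.11).

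All 8 genes of the clamp, its loader and single-strand binding lay below 0, with a median of -0.10. Without control replicate 2 the median was -0.17 and 7 of 8 lay below 0, with Rfc1 at 0.06; Rfc1 also lay above 0 in other alternatives. Pcna, the clamp itself, stood at 249.6, 242 and 252 CPM in controls 1, 2 and 3, against 195, 219 and 218 in pyruvate libraries 1, 2 and 3. The 3 pyruvate libraries all lay lower, and the log2 fold change was -0.24 (SE 0.075, adjusted p = 0.222 by edgeR; 0.0584 without control replicate 2). Rfc4, a loader subunit, stood at 101, 92.5 and 99.9 CPM in the controls against 85.4, 93.2 and 90.6 with pyruvate (log2 -0.12, SE 0.078). Rfc5, also of the loader, stood at 170.04, 142 and 167 CPM in the controls against 155, 137 and 143 with pyruvate (log2 -0.14, SE 0.093). In both, control replicate 2 lay among the pyruvate libraries. The other loader subunits lay at -0.03 for Rfc1, -0.10 for Rfc2 and -0.09 for Rfc3, and the single-strand binding subunits at -0.04 for Rpa1 and -0.10 for Rpa2.

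Of the 4 genes for nucleases, ligase and uracil removal, both nucleases stood apart from the others. Exo1, an exonuclease of mismatch repair and end processing (chromosome 1, 175880581 to 175913489), stood at 174, 174 and 172 CPM in the controls against 141, 145 and 145 with pyruvate. Neither group spread over more than a few CPM, and control replicate 2 lay with the other controls. The log2 fold change was -0.27 (SE 0.065, adjusted p = 0.154 by edgeR) and -0.26 without control replicate 2 (adjusted p = 0.0319), where it passed.

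Fen1, which trims the flaps of Okazaki fragments (chromosome 19, 10199132 to 10204169), stood at 196, 165 and 195 CPM in the controls against 165, 154 and 162 with pyruvate. Control replicate 2, at 164.8, was barely above pyruvate replicate 1, at 164.5. Its log2 fold change was -0.21 (SE 0.088, adjusted p = 0.326 by edgeR) and -0.29 without control replicate 2 (adjusted p = 0.0270). Exons of Fen1 overlap those of a pair of genes on the opposite strand, so its counts are uncertain to that extent. Ung, which removes uracil from DNA, stood at 248, 214 and 243 CPM in the controls against 231, 217 and 223 with pyruvate (log2 -0.07, SE 0.080). Lig1, the ligase that seals Okazaki fragments, lay at -0.02 (SE 0.095), and at up to 0.043 under scaling by library totals and in 3 of the fits that left out 1 library.

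Nucleotide supply held the largest difference among the members. In 4 of its 5 genes every pyruvate library lay below every control, as in 10.6% of all genes tested, and the median log2 fold change was -0.21. Rrm2, the S phase subunit of ribonucleotide reductase that carries the radical (chromosome 12, 24708241 to 24714146), stood at 141, 154 and 141 CPM in control replicates 1, 2 and 3. In pyruvate replicates 1, 2 and 3 it stood at 84.04, 109.6 and 108 CPM. All pyruvate libraries lay below all controls, with pyruvate replicate 1 lowest. The log2 fold change was -0.53 (SE 0.11, adjusted p = 0.124), or 30.9% lower, and -0.49 without control replicate 2 (adjusted p = 0.0340), where it passed edgeR's test. Its adjusted p ran from 0.000589 to 0.394 over the 16 alternatives. The lowest came with the replicate block and the GC and length trend removed, a removal chosen after seeing the data.

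Rrm1, the large subunit that holds the active site and pairs with Rrm2, lay at -0.18 (SE 0.073, adjusted p = 0.325 by edgeR). Rrm2 counts per Rrm1 count were 0.393, 0.3898 and 0.385 in controls 1, 2 and 3, against 0.265, 0.323 and 0.3205 in pyruvate libraries 1, 2 and 3. The ratio was lower in 3 of 3 pyruvate libraries, 0.389 ± 0.0042 against 0.303 ± 0.033 (SD, n = 3 per group; exact permutation p = 0.1, the smallest possible, 0.267 after adjustment over 8 ratios). The controls, replicate 2 included, were close together on this ratio.

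Dut, which removes dUTP and so keeps uracil out of DNA (chromosome 2, 125247190 to 125258608), stood at 138, 115 and 137 CPM in the controls against 111, 105 and 111 with pyruvate. Control replicate 2 was the lowest control, close above the pyruvate libraries. The log2 fold change was -0.25 (SE 0.091, adjusted p = 0.271 by edgeR) and -0.33 without control replicate 2 (adjusted p = 0.0189), where it passed. Tyms, thymidylate synthase, stood at 57.3, 55.2 and 57.4 CPM in the controls against 47.3, 49.9 and 49.5 with pyruvate (log2 -0.21, SE 0.077, adjusted p = 0.271). Its groups did not overlap, while Tk1, the thymidine kinase of the salvage route, lay at 0.00 (SE 0.099).

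**Figure D3:**
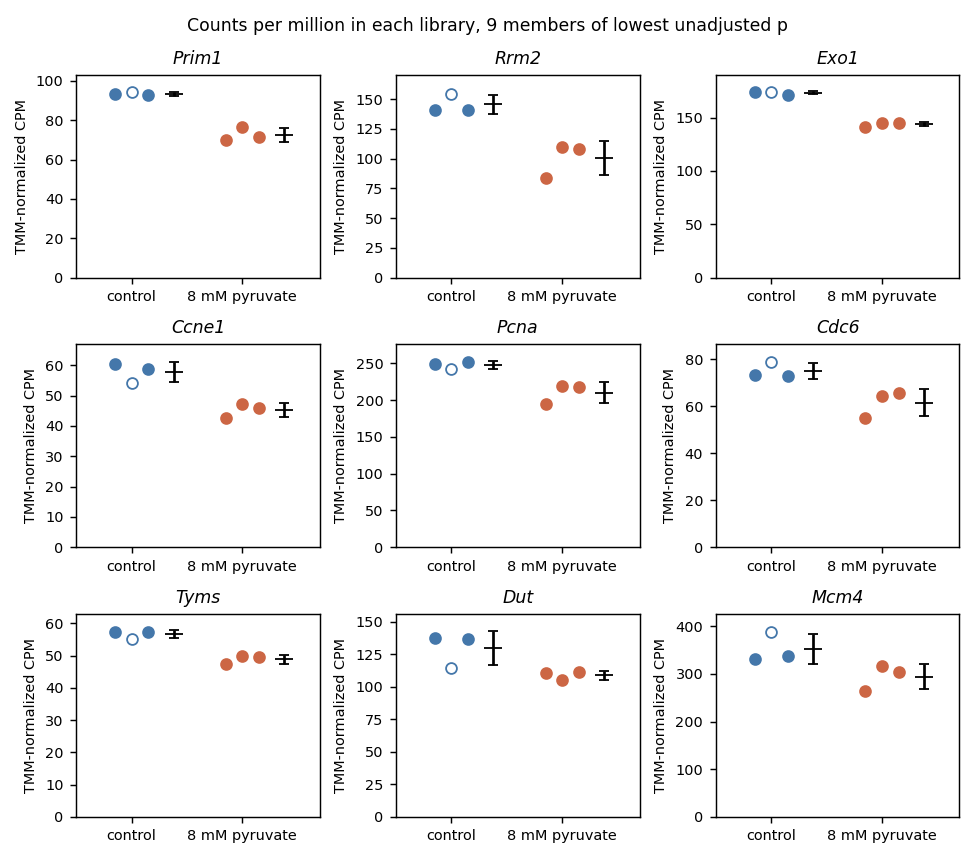
TMM-normalized CPM in each library for the 9 members of lowest unadjusted p; filled points are libraries, the open point is control replicate 2, and the bars beside them are mean ± SD (n = 3). In each panel the 3 pyruvate libraries lie below the 3 control libraries, as for Prim1 at 69.97 to 76.7 against 92.6 to 94.3.

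The 3 genes of histone supply and chromatin assembly lay on both sides of 0, and all 3 below it without control replicate 2. Chaf1a, the large subunit of the histone chaperone CAF-1, stood at 282, 269.9 and 288 CPM in the controls against 257, 244 and 258 with pyruvate. The groups did not overlap (log2 -0.15, SE 0.068, adjusted p = 0.375 by edgeR), but much of its exons overlaps Ubxn6 on the opposite strand. Chaf1b, its partner, stood at 142, 105 and 141 CPM in the controls against 168, 120.1 and 127 with pyruvate (log2 0.10, SE 0.16). Slbp, which binds the stem-loop of histone mRNAs, stood at 178, 209 and 185 CPM in the controls against 162, 184 and 194 with pyruvate (log2 -0.08, SE 0.096). Both overlapped between groups.

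E2F and cyclin E genes all lay below 0, with a median of -0.29 and, without control replicate 2, of -0.16. E2f1 lay at 0.0092 without control replicate 1. Ccne1, cyclin E1, which drives the entry into S phase with Cdk2 (chromosome 7, 38097984 to 38107534), stood at 60.6, 54.2 and 58.7 CPM in the controls against 42.7, 47.4 and 45.8 with pyruvate. Each pyruvate library lay below each control. The log2 fold change was -0.35 (SE 0.087, adjusted p = 0.155 by edgeR) and -0.40 without control replicate 2 (adjusted p = 0.0235), where it passed. Ccne2, cyclin E2, stood at 16.5, 29.1 and 13.9 CPM in the controls against 10.1, 19.6 and 14.5 with pyruvate. Its log2 fold change of -0.43 (SE 0.31) became -0.04 without control replicate 2, its highest library.

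E2f2, an activating E2F, stood at 19.7, 20.1 and 19.5 CPM in the controls against 15.5, 16.95 and 18.3 with pyruvate (log2 -0.23, SE 0.099, adjusted p = 0.346 by edgeR). E2f1, the better expressed activating E2F, lay at -0.04 (SE 0.083), with means of 193 ± 16.7 CPM in control and 188 ± 4.93 in pyruvate medium (SD, n = 3 per group).

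**Figure D4:**
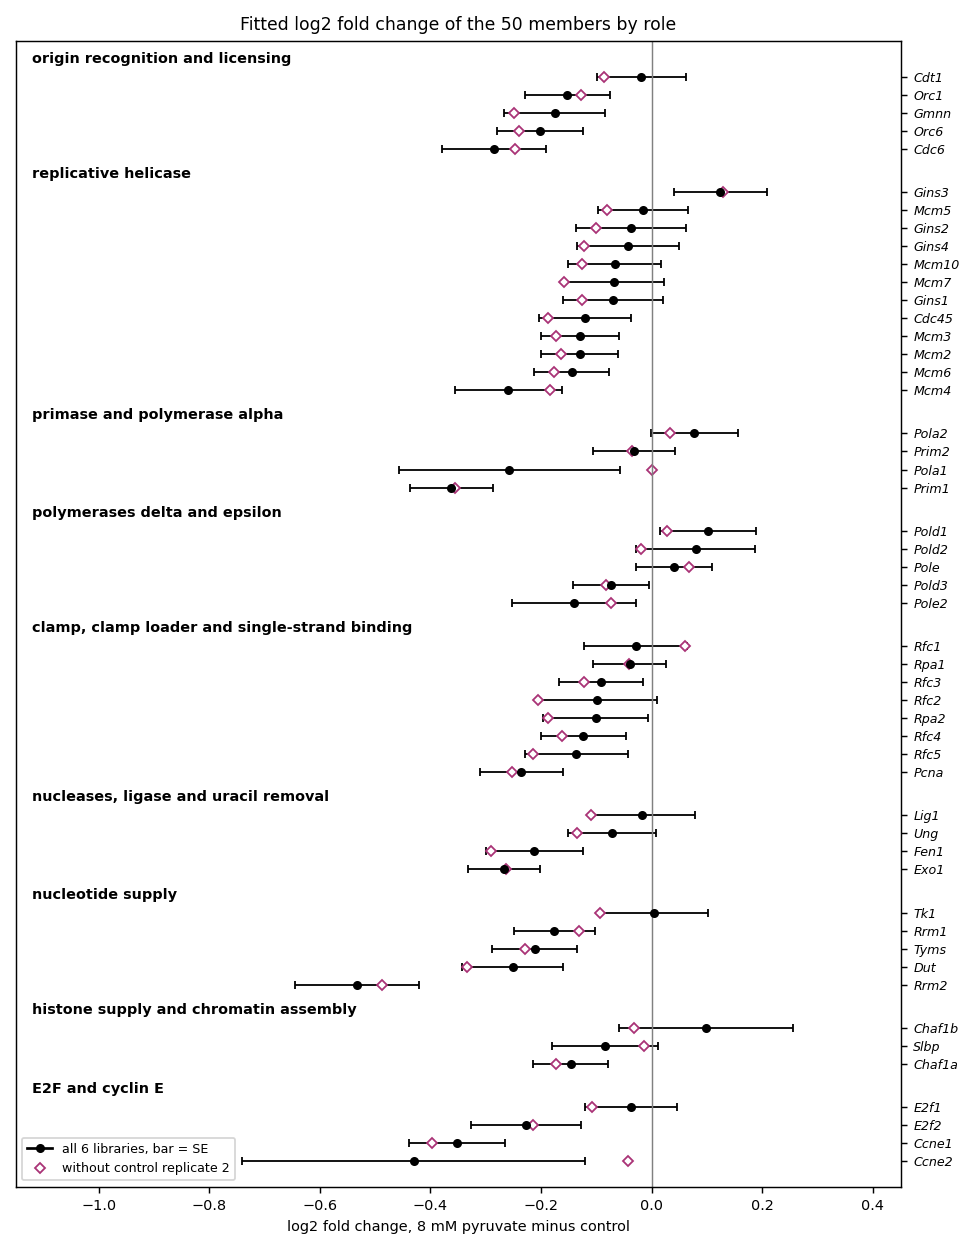
Fitted log2 fold changes, pyruvate minus control, for the 50 members by role; black points with bars are estimate ± SE from all 6 libraries, and open diamonds are fits without control replicate 2. Values below 0 prevail except for polymerases delta and epsilon; Rrm2 lies lowest of the members whose diamond stays near the point, at -0.53 and -0.49.

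Levels per kilobase of the principal transcript, mean of the control libraries, spread widely within complexes. The core ring subunits lay from 98.3 CPM per kb for Mcm4 to 185 for Mcm7, and all 6 ranked above every other helicase gene. Gins2, at 6.59 CPM per kb, and Gins3, at 10.7, were the lowest of that group. Pcna, at 163 CPM per kb, was the highest of its group, and Pola1, at 4.76, and E2f2, at 4.18, were the lowest members. Such levels rest on the annotated transcript length, and the isoforms these cells use were not analysed here.

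**Figure D5:**
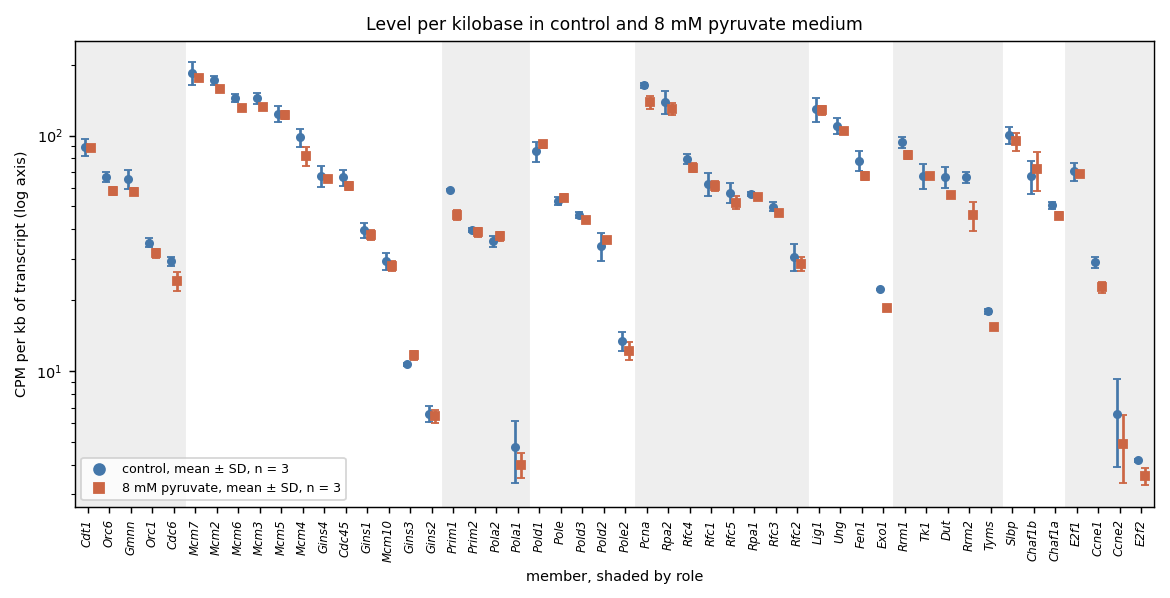
Mean CPM per kb of the principal transcript, on a log axis, with SD over 3 libraries, in control (circles) and pyruvate medium (squares); members are sorted within roles, which alternate in shading. Mcm7 is highest at 185 in control and E2f2 lowest at 4.18, and the groups differ far less than the members do.

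Other genes of the replication pathway, 70 in number, lay in the same direction, 56 below 0 and 14 above with a median of -0.11. By edgeR 0 were called in either direction with all libraries, and 10 lay lower and 3 higher at an unadjusted p under 0.05, against 6.44% and 7.94% of all genes. DESeq2 called 1 lower, against 0.905% of all genes, and 0 higher, and limma-voom called 0. Without control replicate 2, 1 of 70 fell and 1 rose, against 1.82% and 2.33% of all genes, so these counts were no higher than among all genes, and the median was -0.06. Uhrf1, which couples DNA methylation to replication, was the one that fell: it stood at 965, 935 and 979.8 CPM in the controls against 715, 777 and 847 with pyruvate (log2 -0.30, SE 0.081, adjusted p = 0.175; 0.0379 without control replicate 2).

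The one that rose was Cdkn1b, the p27 inhibitor of cyclin E with Cdk2. It stood at 4.83, 5.77 and 4.68 CPM in the controls against 7.41, 8.03 and 6.73 with pyruvate (log2 0.53, SE 0.14, adjusted p = 0.167 by edgeR; 0.0425 without control replicate 2). Every pyruvate library was above every control. Cdkn1a, the p21 inhibitor in the same list, lay the other way with overlapping groups (log2 -0.33, SE 0.14). Its adjusted p by edgeR was 0.324, and 0.0505 without control replicate 2. Dna2, a nuclease of Okazaki fragments chosen after its values were seen, was the gene DESeq2 called. It stood at 46.7, 55.7 and 45.7 CPM in the controls against 29.7, 34.95 and 38.6 with pyruvate (log2 -0.52, SE 0.12, adjusted p = 0.150 by edgeR; 0.0517 without control replicate 2).

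For comparison, 25 of 34 genes of G2 and M phase lay below 0, against 51.9% of all genes, with a median of -0.07, and 7 of the 34 had pyruvate libraries all below the controls, against 10.6%. By edgeR 0 of the 34 were called, with 2 lower and 1 higher at an unadjusted p under 0.05, against 6.44% and 7.94% of all genes. With control replicate 2 left out, 1 of the 34 fell, Plk1, a mitotic kinase (log2 -0.26, adjusted p = 0.0391), against 1.82% of all genes. The difference between the S phase and the G2 and M phase genes was not tested.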

How the data were processed

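Messenger RNA of 6 GS cell libraries was sequenced from a stranded mRNA kit, 3 per medium, per the labels' protocols. The authors deposited raw counts per gene; bcl2fastq 2.20, cutadapt 4.6, STAR 2.7.11a, HTSeq 2.0.5 and build mm10 are named in the submitters' processing notes. Neither the annotation release nor how strand was handled in counting is stated in the labels. A further 3 columns of the table, from another medium, were not used in any step. Nothing in the labels says that replicates were separate cultures, so p-values measure the spread between these libraries, which may be technical.

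Of 32285 genes, 14912 passed edgeR's filter (minimum count 10) and were tested with TMM scaling and robust quasi-likelihood fits (edgeR 4.0.16, R 4.3.3), with Benjamini-Hochberg adjustment over all of them and a threshold of 0.05. DESeq2 1.42.0 and limma 3.58.1 were alternatives, beside other scalings and filters, a replicate block and each library left out. Removal of a GC and length trend (splines of 5 degrees of freedom) was chosen after seeing the data. Totals ran from 20918312 to 26413080 counts. SEs come from the quasi-likelihood fits and SDs from the libraries of a group, so both include the spread between libraries. Floors cover counting error only. The test was tested on simulated data.

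Values in every library are given for the 3 members of lowest unadjusted p in each role and for any member called with all libraries or without control replicate 2. Other pathway genes are named where either of these fits called them, and Dna2 was named beside them for its DESeq2 call, after its values were seen. Cdkn1a was named beside Cdkn1b, also after its values were seen. The members and lists were chosen with earlier results of these data known. Gene positions and lengths come from GENCODE M21 (GRCm38). Exons of 17 members overlap another gene, 15 of them on the opposite strand and 3 on the same strand, so part of their counts is uncertain. Copies elsewhere in the genome were not checked. Promoter windows come from RefSeq on GRCm38.p6, and the other 10 members had none at hand.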

Additional observations from a re-analysis of the deposited data

How the results depend on the processing

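The median log2 fold change of the members stayed below 0 in all 16 alternatives, and 765 of 800 member values kept their direction. The number called did not. With 8 genes called in all and 0 members, library totals gave 14 genes, upper-quartile scaling 15, no filter 83 with 1 member lower, and DESeq2 310 with 3 members and 1 other pathway gene lower. Removing the GC and length trend, chosen after seeing the data, gave 458 genes with 5 members and 2 other pathway genes lower and 1 higher. Leaving out 1 library gave 0 to 625 genes, 0 to 6 members lower, and 0 to 1 other pathway genes lower and 0 to 1 higher; the highest values came without control replicate 2. The replicate numbers were not taken as pairs: same-numbered libraries deviated together with r of 0.31, 0.31 and -0.07, and control replicate 3 correlated best with pyruvate replicate 1. A fit with the replicate block gave 265 genes with 2 members and 1 other pathway gene lower; with the GC and length trend removed too it gave 1292 genes, 10 members and 6 other pathway genes lower and 2 higher. The cause of these differences was not tested.

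Direction turned in 12 members, all near 0 or dependent on 1 library. By library totals, Cdt1 lay at 0.0099, Mcm5 at 0.013, Rfc1 at 0.0040 and Lig1 at 0.012. Tk1 lay at -0.0028 with DESeq2 size factors, -0.0027 with the DESeq2 test, -0.060 after removal of the GC and length trend and -0.056 with the block too. In those last fits, Prim2 lay at 0.0079 and 0.012 and Rfc1 at 0.0063 in both. Over fits that each left out 1 library, ranges were -0.085 to 0.022 for Cdt1, -0.081 to 0.027 for Mcm5, -0.10 to 0.0085 for Gins2, -0.12 to 0.011 for Gins4, -0.055 to 0.0060 for Prim2, -0.43 to 0.00021 for Pola1, -0.020 to 0.18 for Pold2, -0.090 to 0.061 for Rfc1, -0.11 to 0.043 for Lig1, -0.094 to 0.059 for Tk1, -0.062 to 0.19 for Chaf1b and -0.11 to 0.0092 for E2f1. How often differences of the members' size would be detected with 3 libraries per group was not simulated.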
